A study of Mus musculus with 8 samples.

Results

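The regions described here are 640 distal peaks of open chromatin, of 74090 merged peaks in all, that were open in mTEC-I and low in mTEC-II, mTEC-III and mTEC-IV, 4 populations of medullary thymic epithelial cells (mTECs) sorted from the thymus of C57BL/6 mice. Open chromatin was read by ATAC-seq, where a transposase puts adapters into accessible DNA, with 2 libraries for each population and 8 in all. The mTEC-I cells were sorted as CD45-Epcam+MHCIIlowItgb4+, the mTEC-II cells as CD45-Epcam+MHCIIhigh, the mTEC-III cells as CD45-Epcam+Ly6D+ and the mTEC-IV cells as CD45-Epcam+MHCIIlowItgb4-L1cam+, after digestion of the thymus with collagenase, dispase and DNase. The labels give no age and no genetic or drug treatment, and they leave unsaid whether the 2 libraries of a population have separate animals as their source, so each p-value weighs a difference against spread between libraries that may be technical. The gate for mTEC-III names neither MHC class II nor Itgb4, so the gates do not exclude one another by the labels.

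A peak was taken as distal when it lay more than 1000 bp and at most 100000 bp from the nearest transcription start site in the deposited annotation, which 39199 of the merged peaks did. It was taken as open in mTEC-I only when its mean signal there was at least 15 tags per 1000000 tags in merged peaks and at least 4 times the mean of each other population. Of the distal peaks, 6723 met the minimum in mTEC-I, and 640 of these also met the ratio. The same rule with the populations exchanged chose 4 peaks with mTEC-II as the high population, 6 with mTEC-III and 1104 with mTEC-IV. The peaks were thus chosen by the mean signal of each population in these 8 libraries, and that signal is given below as a description, without a test.

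Distal open chromatin often marks enhancers, stretches of DNA that transcription factors bind and that can raise transcription from a promoter some distance away. The nearest gene is only a label for such a peak, since an enhancer can act past it. Medullary thymic epithelial cells present self antigens to developing T cells. Those with low MHC class II include immature cells and cells that make the chemokine CCL21, those with high MHC class II include the cells that use the regulator Aire, and thymic tuft cells are another mature type. Itgb4, the integrin that chose mTEC-I at the cell surface, is a part of hemidesmosomes, the junctions that fix basal epithelial cells to the basement membrane.

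The genome build of the files was mm9, and no sequence of that build was used, so the sequences of the peaks themselves are not shown. The mature microRNAs below are shown because 26 of the 640 peaks had a microRNA as the nearest gene, and because the genes of miR-205, known for its part in epithelial cells, and of miR-342 each lay nearest to 2 of them. They were picked after their values were seen, and Mir466q and Mir7661 also lay nearest to 2 peaks each. Sequences are from RefSeq, 5′ to 3′, with the seed, bases 2 to 8, in capitals.
mmu-miR-205-5p: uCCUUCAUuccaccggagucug
mmu-miR-205-3p: gAUUUCAGuggagugaagcuca
mmu-miR-342-3p: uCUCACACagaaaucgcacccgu
mmu-miR-342-5p: aGGGGUGCuaucugugauugag
No pair of these 4 shares a seed. The files hold chromatin signal only and no level of any microRNA.

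The next sequences are promoters of 3 genes nearest to one of the peaks whose own promoter peak was higher in mTEC-I, shown because the promoter results below turn on such genes. Each is the 250 bases before the single start site that RefSeq lists for the gene on GRCm38.p6, read 5′ to 3′ on the gene's strand. The Krt5 promoter is chr15:101712906-101713155 on the minus strand, the Slc46a2 promoter chr4:59915057-59915306 on the minus strand, and the Mill1 promoter chr7:18245097-18245346 on the plus strand.
Krt5: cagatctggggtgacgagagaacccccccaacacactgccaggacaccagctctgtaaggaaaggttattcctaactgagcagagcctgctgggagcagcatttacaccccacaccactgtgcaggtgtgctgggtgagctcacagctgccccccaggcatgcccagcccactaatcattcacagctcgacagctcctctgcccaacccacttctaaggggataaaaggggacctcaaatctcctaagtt
Slc46a2: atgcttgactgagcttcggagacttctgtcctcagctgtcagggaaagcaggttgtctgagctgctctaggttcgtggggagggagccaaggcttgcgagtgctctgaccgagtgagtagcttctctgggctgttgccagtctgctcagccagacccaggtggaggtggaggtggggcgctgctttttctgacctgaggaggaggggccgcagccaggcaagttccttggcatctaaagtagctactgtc
Mill1: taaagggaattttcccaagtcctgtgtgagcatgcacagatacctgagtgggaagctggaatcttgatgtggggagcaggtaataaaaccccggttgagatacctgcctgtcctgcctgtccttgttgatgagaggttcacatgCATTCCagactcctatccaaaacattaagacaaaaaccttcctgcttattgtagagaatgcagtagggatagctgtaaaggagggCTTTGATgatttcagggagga
Capitals mark motif matches, counted back from the start site. The Mill1 stretch held the TEAD letters GGAATG, read on the opposite strand, at -106 to -101, and the TCF/LEF letters ATCAAAG, also read on the opposite strand, at -21 to -15. Of all 32851 windows of this length in the table, 12.6% held the TEAD letters and 3.21% the TCF/LEF letters on either strand. The Krt5 and Slc46a2 stretches held no match to any of 13 motifs searched, which says only that these letters were not in these windows.

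Library facts first. Read ends within merged peaks ran from 866016 in mTEC-III replicate 1 to 3383446 in mTEC-I replicate 1. The share of a library's tags that lay in merged peaks was 19.7% in both mTEC-I libraries, while the mTEC-II libraries had 17.8% and 15.3%, the mTEC-III libraries 8.44% and 11.003% and the mTEC-IV libraries 18.1% and 14.2%. Signal is given below as tags per 1000000 tags in merged peaks, which makes the totals in peaks equal. It does not remove background reads that lie within peaks, and their part in the low values was not tested. The choice of scaling matters: scaled to total tags, the same rule gave 1738 peaks, among them all 640. The label of mTEC-I was set against its gate. The Itgb4 promoter peak held 55.0 and 44.0 in mTEC-I, with mTEC-II at 42.7 and 26.9, mTEC-III at 37.0 and 31.3, and mTEC-IV at 42.3 and 36.9, with a log2 difference of 0.46 ± 0.21 (SE) between mTEC-I and the mean of the others and a limma adjusted p of 0.092. It was thus open in all 4 populations. The call of higher in mTEC-I was made with edgeR, DESeq2, cyclic loess, total-tag scaling and without mTEC-II replicate 1. The L1cam promoter peak held 1.77 and 1.08 in mTEC-I, with mTEC-II at 0.779 and 2.11, mTEC-III at 2.31 and 2.08, and mTEC-IV at 7.35 and 8.14 (log2 -0.82 ± 0.54 against the mean of the others, limma adjusted p 0.251). Against mTEC-IV alone, the population gated on L1cam, it was called lower (limma adjusted p 0.0177). The promoter peak of Aire held 11.5 and 12.3 in mTEC-I, with mTEC-II at 41.2 and 33.8, mTEC-III at 23.1 and 29.9, and mTEC-IV at 23.4 and 20.3, lower in mTEC-I by the same test (log2 -1.18 ± 0.23, adjusted p 0.00122). With total-tag scaling that call was lost. Promoter peaks of Ly6d, H2-Aa and Epcam were not called either way against the mean of the others. H2-Aa, with 45.8 and 43.3 in mTEC-I, was also not called against mTEC-II, gated as MHCIIhigh, with 71.5 and 43.8 (limma adjusted p 0.449). Ly6d, with 2.96 and 3.61 in mTEC-I, was not called against mTEC-III, gated on Ly6D, with 2.31 and 9.73 (limma adjusted p 0.682). Ptprc, which encodes CD45, had no promoter peak, and neither did Ccl21a.

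At the chosen peaks the signal in mTEC-I had a median of 20.1 in replicate 1 and 20.6 in replicate 2. It was 2.33 and 3.17 in the mTEC-II libraries, 2.31 and 2.78 in the mTEC-III libraries, and 0.917 and 1.36 in the mTEC-IV libraries. Behind these medians stood 68 and 57 read ends a peak in mTEC-I, with mTEC-II at 3 and 6, mTEC-III at 2 and 4, and mTEC-IV at 2 and 4, so the low side of each contrast rests on few reads. In bulk libraries, fewer cells with an open site and less opening per cell cannot be told apart. The means over the 2 mTEC-I libraries ran from 15.02 to 74.2, with quartiles of 17.3 and 23.98. The ratio of mTEC-I to the highest other population had a median of 5.55 and quartiles of 4.63 and 7.33. Low did not mean empty: no read end was found in either library at 7 of the 640 peaks in mTEC-II, at 11 in mTEC-III and at 33 in mTEC-IV.

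**Figure D1:**
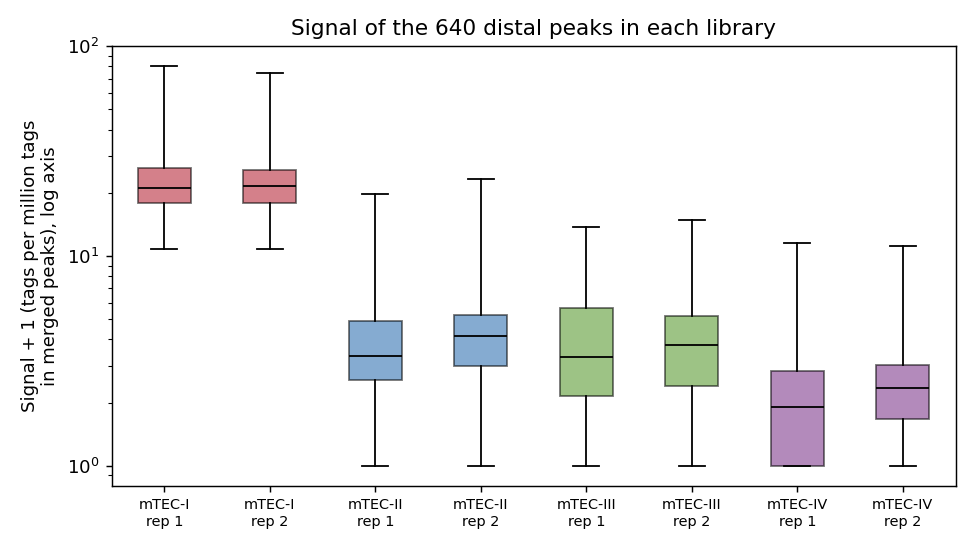
Signal of the 640 distal peaks in each of the 8 libraries, as tags per 1000000 tags in merged peaks plus 1, on a log axis. Boxes span the quartiles, the line is the median and whiskers reach the lowest and highest peak; both mTEC-I medians are above 20 and the other 6 libraries have medians of 3.17 or less, as the rule requires on average.

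The deposited table also names the libraries whose called peaks were merged into each region, which the rule did not read but which come from the same reads. Replicate 1 of mTEC-I was named for 634 of the regions, replicate 2 for 632, and both for 627. Both were thus named for 98.0%, near the 95.0% of all distal peaks that met the minimum in mTEC-I. The mTEC-II libraries were named for 2 and 10 of them, those of mTEC-III for 0 and 1, and those of mTEC-IV for 2 each. At 624 of the regions (97.5%) none of the 6 other libraries had a called peak. That held for 26.1% of the distal peaks that met the minimum in mTEC-I and 33.3% of all distal peaks. The 2 mTEC-I libraries were close to each other at these regions: their ratio had a median of 0.982 and quartiles of 0.831 and 1.17, and 636 regions were within 2-fold. Both mTEC-I libraries were above all 6 others at 640 regions, a direction that the rule largely fixes. Set in each library singly rather than on means, both thresholds were met by 231.

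The thresholds cut a continuous range. Just inside the minimum were peaks near Krt33a and Primpol at 15.02 tags per 1000000 and one near Dpyd at 15.03, and just outside were peaks near Snord104 and Dcdc2c at 14.98 and one near Pja2 that rounds to the minimum. Just inside the ratio were peaks near Sh2d5 at 4.002, Kcnip3 at 4.003 and Chgb at 4.007. Just outside it were peaks near Kazn and Trabd2b at 3.998 and one near a RIKEN locus at chr5:53016343-53016497 at 3.995.

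The strongest of the peaks in mTEC-I lay at chr2:77446914-77447235 in intron 3 of Zfp385b, a zinc finger gene. It held 79.5 and 68.9 in mTEC-I, with mTEC-II at 12.4 and 22.2, mTEC-III at 10.4 and 11.8, and mTEC-IV at 5.51 and 7.79. Next came a peak at chr11:11744445-11744694 in intron 7 of Ddc, whose enzyme makes dopamine and serotonin from their precursors, with 63.0 and 73.3 in mTEC-I, with mTEC-II at 10.1 and 17.4, mTEC-III at 12.7 and 7.64, and mTEC-IV at 4.14 and 3.73. A peak at chr11:117823670-117823925, 6883 bp from the start of Socs3, an inhibitor of cytokine signalling through JAK kinases, held 56.7 and 62.8 in mTEC-I, with mTEC-II at 15.5 and 13.2, mTEC-III at 12.7 and 10.4, and mTEC-IV at 7.35 and 5.08. In all 3 both mTEC-I values were well above every other library, and the mTEC-IV libraries were the lowest.

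A peak at chr13:38502242-38502525 in intron 1 of Bmp6, a bone morphogenetic protein, held 55.0 and 58.8 in mTEC-I, with mTEC-II at 18.6 and 3.69, mTEC-III at 11.5 and 9.03, and mTEC-IV at 1.84 and 4.06. Here the mTEC-II libraries stood apart from each other. A peak 11040 bp upstream of Shisa5, inside an exon of Pfkfb4, an enzyme that sets the pace of glycolysis, held 54.1 and 48.0 in mTEC-I, with mTEC-II at 11.7 and 6.33, mTEC-III at 11.5 and 8.34, and mTEC-IV at 10.6 and 5.08. The other peaks among the 8 strongest lay 50738 bp upstream of Zfp648, in intron 1 of Actn4 with Capn12 as the nearest gene, and at chr2:115309403-115309672 outside any gene, with mean signals of 52.1, 48.5 and 47.9 in mTEC-I.

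Other peaks had signal in mTEC-I and next to none elsewhere. A peak 14450 bp upstream of Gimap3, a GTPase gene of lymphocytes, held 19.2 and 18.0 in mTEC-I, with mTEC-II at 0 and 0.524, mTEC-III at 0 and 0.691, and mTEC-IV at 0.917 and 0. A peak in intron 2 of Cacnb4, which encodes a subunit of voltage-gated calcium channels, held 17.7 and 23.1 in mTEC-I, with mTEC-II at 0 and 1.06, mTEC-III at 0 and 0.691, and mTEC-IV at 0 and 1.36. A peak 74124 bp upstream of Boc, a co-receptor for hedgehog ligands, held 34.9 and 24.9 in mTEC-I, with mTEC-II at 0.779 and 2.11, mTEC-III at 1.15 and 2.78, and mTEC-IV at 0.917 and 0. Each other value in these 3 stands for a handful of read ends, so their ratios are loose. The remaining peaks of this kind lay near Atic, in introns of Tnik, Slc14a2 and Dgki, and near Cnksr3, with mean signals of 15.5 to 25.7 in mTEC-I.

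By position, 321 of the 640 peaks were intergenic (50.2%, against 44.8% of all distal peaks) and 285 intronic (44.5%, against 48.0%). The rest were 11 in exons, 12 at transcript ends, 6 in 3′ untranslated regions and 5 in non-coding transcripts. They lay at a median of 28.2 kb from the nearest start site, against 20.8 kb for all distal peaks, and 27.5% of them were 50 to 100 kb away, against 19.9%. Their median width was 174 bp, against 153 bp. These shares are descriptions, and the minimum signal in the rule bears on width. Of 284 intronic peaks with a matched host gene, 94 lay within a gene other than the nearest one (33.1%, against 29.8% of all distal intronic peaks).

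The 640 peaks had 581 nearest genes: 528 with 1 peak, 48 with 2, 4 with 3, and Col6a2 alone with 4. Of all genes with a distal peak, 4.57% had one. Another of the peaks lay within 10000 bp for 51 of them (7.97%) and within 50000 bp for 105 (16.4%). The genes with 3 were Col4a1, Lnx1, Fggy and a RIKEN locus on chromosome 14. Lnx1 is a ubiquitin ligase known to act on Numb, an inhibitor of Notch, and Fggy is a carbohydrate kinase.

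Col6a2 and Col6a1 encode chains of collagen VI, a microfibril of the extracellular matrix next to basement membranes. Of 11 merged peaks in a window from 120 kb upstream to 30 kb downstream of the Col6a2 start, 5 were among the 640. The nearest to Col6a2, at chr10:76096877-76097017, held 14.5 and 18.8 in mTEC-I, with mTEC-II at 2.33 and 3.17, mTEC-III at 4.62 and 2.78, and mTEC-IV without a read end. At chr10:76105695-76105931 the values were 17.7 and 23.5 in mTEC-I, with mTEC-II at 3.11 and 2.63, mTEC-III at 0 and 3.47, and mTEC-IV at 0 and 1.36. The other pair, at chr10:76127467-76127607 and chr10:76131753-76131909, averaged 17.7 and 15.6 in mTEC-I and no more than 2.62 in any other population. The fifth peak, 7502 bp upstream of Col6a1, held 23.3 and 17.3 in mTEC-I, with mTEC-II at 1.55 and 5.80, mTEC-III at 2.31 and 7.64, and mTEC-IV at 4.14 and 2.71. The mTEC-I libraries were above every other library at each of the 5. A Col6a1 peak close to the last, with 13.7 in mTEC-I, fell short of the minimum.

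**Figure D2:**
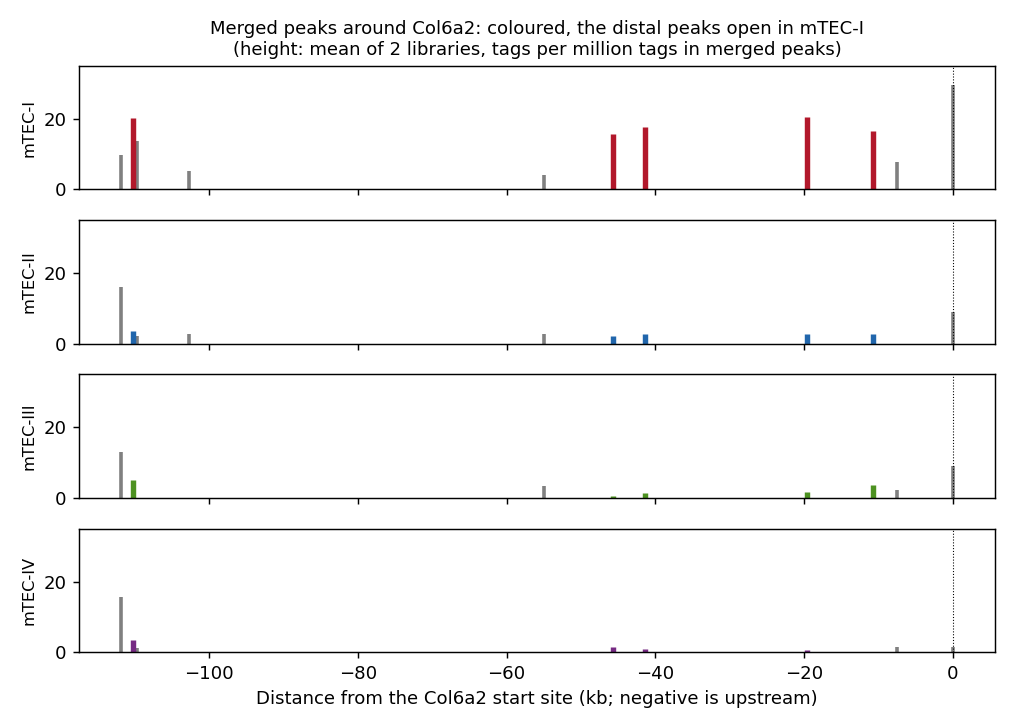
Merged peaks by distance in kb from the Col6a2 start site (negative is upstream), 1 panel a population, with height as the mean of 2 libraries in tags per 1000000 tags in merged peaks. Coloured lines are the 5 distal peaks open in mTEC-I and grey lines the other 6; the coloured lines reach 15.6 to 20.6 in mTEC-I and stay at 4.98 or less in the other panels.

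Gene lists of epithelial, signalling and matrix genes show where else the peaks lay. The lists were chosen with earlier results of these data known, so counts over them are descriptions. The matrix list held 14 of the peaks, at 7 of its 29 genes with any distal peak. Beside collagen VI these were Col4a1 and Col4a2, the chains of collagen IV that lie head to head and make the mesh of basement membranes, Col18a1, a basement membrane collagen, Col7a1, the collagen of anchoring fibrils, and Sparc, a secreted protein that binds collagen. The 3 Col4a1 peaks lay in introns 3 and 4 of Col4a2, and the 1 Col4a2 peak in intron 2 of Col4a1. The first of these, at chr8:11343133-11343319, held 21.3 and 16.6 in mTEC-I, with mTEC-II at 3.88 and 2.11, mTEC-III at 0 and 1.39, and mTEC-IV at 0 and 1.69. A Sparc peak at chr11:55191924-55192112 held 26.01 and 19.1 in mTEC-I, with mTEC-II at 4.66 and 4.22, mTEC-III at 3.46 and 2.78, and mTEC-IV at 0 and 1.69. The Col18a1, Col7a1 and second Sparc peaks averaged 17.9 to 24.98 in mTEC-I and no more than 4.84 in another population.

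Of 21 basal keratin and adhesion genes with a distal peak, 5 had one of the regions. Krt5, the keratin of basal epithelial cells, had its only distal peak among them, 1022 bp upstream at chr15:101544270-101544419, with 26.3 and 26.7 in mTEC-I, with mTEC-II at 3.88 and 3.69, mTEC-III at 5.77 and 6.25, and mTEC-IV at 3.68 and 2.71. It lies close to the 1000 bp limit that separates distal from promoter peaks. Dst, a linker of keratin filaments to hemidesmosomes, had a peak in intron 6 with 22.2 and 27.4 in mTEC-I, mTEC-II at 1.55 and 3.17, and no read end in mTEC-III or mTEC-IV. The Itgb4 peak lay 16524 bp upstream, in intron 5 of Sap30bp, with 30.4 and 29.2 in mTEC-I, with mTEC-II at 5.44 and 5.80, mTEC-III at 3.46 and 4.17, and mTEC-IV at 0 and 1.36. So the gene of the sorting marker, whose promoter peak was open in every population, had a distal peak of this kind. Itgb6, an integrin of epithelia, had a peak in its intron 1 that averaged 16.2 in mTEC-I.

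Among epithelial and AP-1 transcription factors, 5 of 32 genes had a peak, which made 5 of the 229 distal peaks of that list. The Pax9 peak, for a factor needed to form the thymus, lay in intron 4 of Slc25a21 and held 29.9 and 40.4 in mTEC-I, with mTEC-II at 1.55 and 4.74, mTEC-III at 6.93 and 0.691, and mTEC-IV at 1.38 and 0. A peak 53305 bp upstream of Jun, an AP-1 subunit, held 31.0 and 30.7 in mTEC-I, with mTEC-II at 1.55 and 5.80, mTEC-III at 2.31 and 0.691, and mTEC-IV at 0 and 2.03. Peaks near Tfap2a and Tfap2c, AP-2 factors of surface epithelium, and in an intron of Ehf, an epithelial ETS factor, averaged 18.3 to 20.5 in mTEC-I. Trp63, the p63 gene of basal epithelium, had 22 distal peaks and none of this kind, and Foxn1, the master regulator of thymic epithelium, had 4 and none.

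The shares of signalling genes stand beside the 4.57% of all genes with a distal peak, and do not allow for the number of distal peaks a gene has. Counted by distal peak, it was 4 of 165 for Wnt and 2 of 170 for TGF-beta and BMP, beside 640 of all 39199. It was 4 of 92 for Notch, 5 of 136 for growth factor signalling and 2 of 61 for chemokines and cytokines. In the Wnt list, 3 of 35 genes (8.57%) held 4 peaks: the ligands Wnt5b and Wnt10a and the receptor Fzd7. The Wnt5b peak, in its intron 1, held 37.2 and 41.1 in mTEC-I, with mTEC-II at 9.32 and 6.86, mTEC-III at 8.08 and 4.17, and mTEC-IV at 2.30 and 2.37. In the TGF-beta and BMP list it was 2 of 30 genes (6.67%), both type I receptors for BMPs: the Bmpr1b peak in intron 1 held 30.7 and 36.1 in mTEC-I, with mTEC-II at 5.44 and 3.17, mTEC-III at 0 and 1.39, and mTEC-IV at 1.84 and 0, and the Bmpr1a peak averaged 16.4 in mTEC-I. In the Notch list, 4 of 23 genes had a peak: the ligand Jag2, the DNA-binding partner Rbpj, its co-activator Maml2 and the target Hey2, with means of 15.1 to 19.2 in mTEC-I. In the list of growth factor signalling it was 5 of 29 genes: the receptors Egfr and Igf2r, the binding proteins Igfbp2 and Igfbp3 and the ligand Pdgfa, whose intronic peak averaged 24.6 in mTEC-I. Of 17 chemokine and cytokine genes, Csf1 and Lif had a peak, with 18.5 and 18.3 on average in mTEC-I.

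Counted by nearest gene, none of the regions fell to 19 genes of the mature Aire stage, 16 for plasma and lipid-binding proteins, 15 of the interferon response, 10 of mesenchyme and 8 of blood cells. Beside a share of 4.57% for all genes, lists this short say little at 0. Fbn1, in the mesenchyme and matrix lists, held one in its intron 65 whose nearest gene is Dut. The tuft cell list had 2 of 21 genes: Alox5, with no read end in mTEC-II and 22.8 on average in mTEC-I, and Rgs13. The endothelial list had 1 of 12, Emcn.

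The 2 peaks nearest to Mir205 lay 40159 and 61272 bp upstream. The nearer held 24.2 and 14.8 in mTEC-I, with mTEC-II at 2.33 and 2.11, mTEC-III at 0 and 2.78, and mTEC-IV at 0 and 0.338. The farther held 25.1 and 20.6 in mTEC-I, with mTEC-II at 0.779 and 8.97, mTEC-III at 1.15 and 0, and mTEC-IV at 0.458 and 2.03, so the mTEC-II libraries were far apart there. The 2 Mir342 peaks lay in introns 3 and 8 of Evl, its host gene, and averaged 19.3 and 24.4 in mTEC-I.

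Promoter peaks of the nearest genes, within 1000 bp of a start site, were not read by the rule, but they come from the same libraries and the same contrast, so their counts describe these libraries and are no independent support. Of the 581 nearest genes, 370 had a promoter peak and 355 passed the filter on low values. By limma with Benjamini-Hochberg adjustment over all 59421 peaks tested, 84 were higher in mTEC-I than the mean of mTEC-II, mTEC-III and mTEC-IV (23.7%), against 7.94% of all genes with a promoter peak tested. Another 16 were lower (4.51%), against 8.57%. The median log2 difference was 0.28, against -0.03 for all genes. Among genes with a distal peak but none of these, 9.10% were higher and 8.46% lower. Against each population singly, mTEC-II gave 50 higher (all genes 4.56%) and 9 lower (3.95%), mTEC-III 71 higher (7.98%) and 10 lower (4.69%), and mTEC-IV 72 higher (5.76%) and 17 lower (9.66%). Higher against all 3 singly were 25 (7.04%, against 1.45% of all genes). Lower against all 3 singly were 2, for which the share over all genes was not counted. Both mTEC-I libraries were above the other 6 at 68 of the 84. The matching share over all genes was not counted, so this is no result about these genes.

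The counts depended on having both mTEC-I libraries, and some of the promoter peaks passed the filter on low values only through mTEC-I. Without mTEC-I replicate 1, 14 of 337 were higher and 3 lower, against 134 and 275 of 12025 genes. Without mTEC-I replicate 2, 14 of 341 were higher and 6 lower, against 0.997% and 2.02%. Without mTEC-IV replicate 2, 10 were lower. With total-tag scaling 187 of 356 were higher and 7 lower, against 28.2% and 2.12% of all genes, and the median of all peaks then stood at 0.46. Genes nearest to 2 or more of the peaks had 11 of 34 higher (32.4%) and those nearest to 1 had 73 of 321 (22.7%), a difference that was not tested. By distance of the nearest of the peaks, 15.7% were higher at 1 to 10 kb, 27.7% at 10 to 50 kb and 21.1% at 50 to 100 kb.

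**Figure D3:**
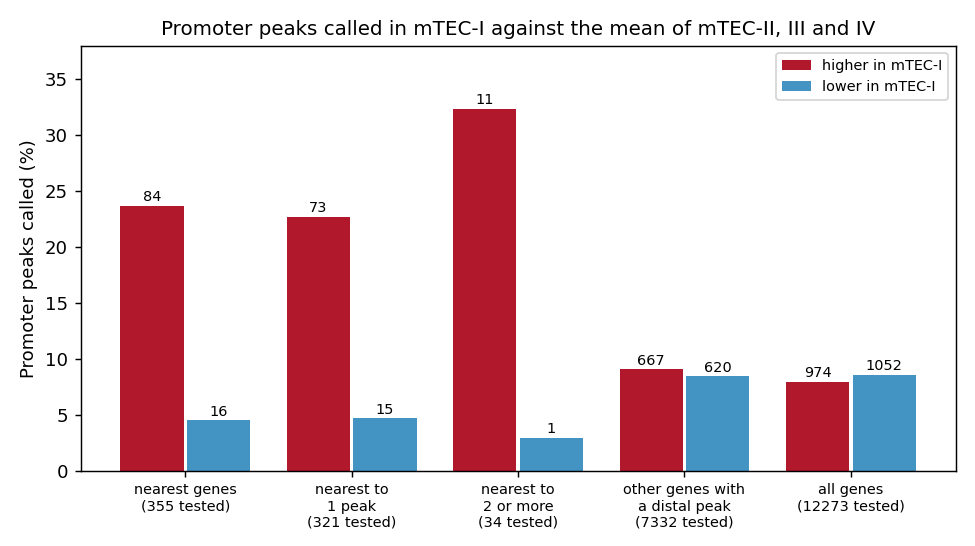
Share of tested promoter peaks, in percent, called higher (red) or lower (blue) in mTEC-I against the mean of mTEC-II, mTEC-III and mTEC-IV, with the number of peaks above each bar. The nearest genes have 23.7% higher and 4.51% lower, and all genes 7.94% and 8.57%.

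Krt5 had a promoter peak that followed its distal peak, with 27.5 and 32.5 in mTEC-I, with mTEC-II at 6.21 and 3.17, mTEC-III at 2.31 and 6.25, and mTEC-IV at 0.458 and 0.675, a log2 difference of 3.34 ± 0.51 (SE; limma adjusted p 0.000316). Slc46a2, a membrane transporter of thymic epithelium, had 38.1 and 42.2 in mTEC-I, with mTEC-II at 8.55 and 8.44, mTEC-III at 2.31 and 6.95, and mTEC-IV at 2.30 and 1.36 (3.12 ± 0.43, limma adjusted p 0.000179). Its distal peak lay 15343 bp away in the 3′ untranslated region of Snx30. Col6a2 had 27.8 and 31.0 in mTEC-I, with mTEC-II at 9.32 and 8.44, mTEC-III at 5.77 and 12.5, and mTEC-IV at 1.38 and 1.70 (2.39 ± 0.40, limma adjusted p 0.000511). In these 3 genes the mTEC-I libraries did not overlap with the others, which was a condition for picking the rises and falls described here.

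Phldb2, which anchors microtubules at the basal face of epithelial cells, had 31.6 and 40.4 in mTEC-I, with mTEC-II at 10.9 and 11.1, mTEC-III at 2.31 and 7.64, and mTEC-IV at 7.35 and 13.2 (2.11 ± 0.39, limma adjusted p 0.000931). Lox, the enzyme that cross-links collagen and elastin, had 19.5 and 11.9 in mTEC-I, with mTEC-II at 0 and 3.69, mTEC-III at 0 and 4.17, and mTEC-IV at 0 and 0.675 (3.52 ± 0.80, limma adjusted p 0.00324). Mill1, an MHC class I-like gene, had 20.98 and 18.8 in mTEC-I, with mTEC-II at 3.11 and 0, mTEC-III at 1.15 and 4.86, and mTEC-IV at 0.917 and 2.37 (3.22 ± 0.68, limma adjusted p 0.00208). The promoter peaks of Olfr107, an olfactory receptor, Ces1b, a carboxylesterase, Scx, a tendon transcription factor, and Boc rose by 2.35 to 3.32 on the log2 scale. The Boc call against mTEC-II alone was not made (adjusted p 0.122), and its overall call was lost without either mTEC-I library. The Phldb2 call was lost without mTEC-I replicate 2, and the Lox call with DESeq2. The promoter peaks of Krt5, Lox, Mill1, Olfr107, Ces1b and Scx passed the filter on low values only through mTEC-I. Without either mTEC-I library they were not tested, so whether their calls hold there is not known. Their p-values describe peaks kept by the group where they are high, and are no independent support.

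The 6 largest falls, picked under the same condition, were smaller. A4galt, which makes the glycolipid Gb3, had 4.73 and 4.33 in mTEC-I, with mTEC-II at 20.97 and 13.7, mTEC-III at 8.08 and 24.3, and mTEC-IV at 14.7 and 20.7 (-1.70 ± 0.38, limma adjusted p 0.00318). Tgif1, a repressor in TGF-beta signalling, had 10.9 and 12.3 in mTEC-I, with mTEC-II at 40.4 and 31.7, mTEC-III at 28.9 and 29.9, and mTEC-IV at 14.7 and 18.0 (-1.11 ± 0.23, limma adjusted p 0.0019), with mTEC-IV between mTEC-I and the other populations. Fam131c, Saxo2, Ankrd2, a muscle ankyrin repeat protein, and Cops8, a COP9 signalosome subunit, fell by 1.29 to 0.61 on the log2 scale. With total-tag scaling, the calls of Tgif1, Fam131c, Saxo2, Ankrd2 and Cops8 were lost. Without mTEC-I replicate 1 the same 5 were lost, and without mTEC-I replicate 2 those of A4galt, Fam131c and Cops8. The Ankrd2 call was also lost without mTEC-II replicate 2, without mTEC-IV replicate 2, with cyclic loess and with DESeq2. Each of these 6 genes thus had a distal peak higher in mTEC-I and a promoter peak called lower there than the mean of the others. Against each population singly, only A4galt was called lower every time (limma adjusted p 0.0168, 0.0333 and 0.00406 for mTEC-II, mTEC-III and mTEC-IV). Tgif1 was not called against mTEC-IV, and Saxo2 was not called against mTEC-III. Fam131c, Ankrd2 and Cops8 were called against mTEC-IV only.

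**Figure D4:**
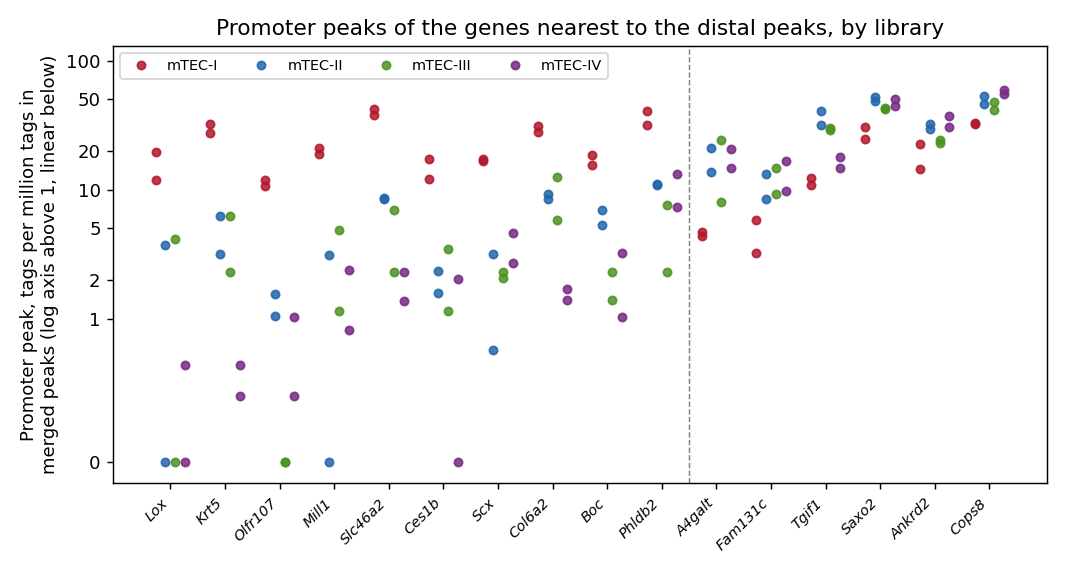
Promoter peaks of the 10 nearest genes with the largest rises (left of the dashed line) and the 6 with the largest falls (right of it), in tags per 1000000 tags in merged peaks, on an axis that is logarithmic above 1 and linear below. Each point is 1 of the 8 libraries. The mTEC-I points lie above all others for the 10 rises and below them for the 6 falls, as the pick required.

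Several further nearest genes were picked after their values were seen. Pthlh, a parathyroid hormone-related factor of epithelia, had a promoter peak of 68.6 and 81.9 in mTEC-I, with mTEC-II at 24.1 and 20.1, mTEC-III at 47.3 and 27.8, and mTEC-IV at 23.4 and 27.5 (1.44 ± 0.21, limma adjusted p 0.000275). Snai2, a repressor of the epithelial E-cadherin gene, had 32.8 and 40.8 in mTEC-I, with mTEC-II at 11.7 and 13.2, mTEC-III at 18.5 and 9.03, and mTEC-IV at 9.19 and 10.2 (1.61 ± 0.29, limma adjusted p 0.000907). Bnc1, a zinc finger factor of basal keratinocytes, had 15.1 and 9.38 in mTEC-I, with mTEC-II at 7.77 and 3.69, mTEC-III at 5.77 and 2.08, and mTEC-IV at 0 and 3.05 (1.90 ± 0.65, limma adjusted p 0.0305). The Snai2 call was lost without mTEC-I replicate 2, and the Bnc1 call without either mTEC-I library, without mTEC-II replicate 2 and without mTEC-III replicate 2.

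Across the lists, promoter peaks in all their genes, with or without a distal peak of this kind, were set beside the counts for all genes above. Since the lists were chosen with earlier results of these data known, the counts are descriptions and no support. In the matrix list 17 of 22 were higher and 0 lower, among them Col4a2 (1.60 ± 0.33, limma adjusted p 0.00191) and Col18a1 (1.77 ± 0.47, adjusted p 0.00827). Some of the 22 had passed the filter on low values only through mTEC-I. Without mTEC-I replicate 1 the count was 1 of 18 and without mTEC-I replicate 2 it was 4 of 18. In the basal list 8 of 19 were higher and 0 lower, and 1 of 18 without either mTEC-I library. Krt14, the partner of Krt5, was not among the 8: its promoter peak had 11.2 and 13.0 in mTEC-I, with mTEC-II at 28.0 and 31.7, mTEC-III at 43.9 and 27.8, and mTEC-IV at 6.89 and 5.76. Its values are named after they were seen.

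Of 34 transcription factor promoters 11 were higher and 2 lower. Trp63 was at 2.22 ± 0.77 (limma adjusted p 0.0321), Foxn1 at 1.15 ± 0.42 (adjusted p 0.0401), Tfap2a at 1.56 ± 0.58 (adjusted p 0.0419) and Pax9 at 0.45 ± 0.16 (adjusted p 0.0409). Set against 1 population at a time, Trp63 and Foxn1 passed only against mTEC-IV (limma adjusted p 0.00432 and 0.00378). By the same test the adjusted p was 0.113 and 0.307 against mTEC-II, and 0.611 and 0.432 against mTEC-III. The Trp63 peak held 9.46 and 11.9 in mTEC-I, with mTEC-II at 0 and 8.97, mTEC-III at 8.08 and 4.86, and mTEC-IV at 0.458 and 0. Without either mTEC-I library the list count was 2 higher and 0 lower, without mTEC-IV replicate 2 it was 3 and 1, and with total-tag scaling 20 and 0. Of 17 alternatives, the Trp63 call was lost in 6, that of Foxn1 in 5, that of Tfap2a in 7 and that of Pax9 in 6, and for each of the 4 these included leaving out either mTEC-I library. Ehf was lower, at -0.56 ± 0.19 (limma adjusted p 0.0281), although it had a distal peak of this kind, and that call too was lost without either mTEC-I library, without mTEC-IV replicate 2, with total-tag scaling and with DESeq2. Counts for the other lists were 11 higher and 1 lower of 33 for Wnt, 8 and 0 of 31 for TGF-beta and BMP, 7 and 1 of 22 for Notch, 6 and 2 of 25 for growth factors, and 2 and 1 of 14 for chemokines and cytokines. They were 4 and 1 of 8 for plasma proteins, 6 and 1 of 23 for interferon response and 2 and 4 of 20 for the Aire stage. Without mTEC-I replicate 1 and without replicate 2, the higher count was 2 and 2 for Wnt, 1 and 0 for TGF-beta and BMP, 1 and 0 for growth factors, and 0 both times for Notch, chemokines and cytokines, plasma proteins, interferon response and the Aire stage. With total-tag scaling it was 17 of 33 for Wnt, 21 of 32 for TGF-beta and BMP, 12 of 22 for Notch and 16 of 26 for growth factors. That scaling called 28.2% of all genes higher and put the median of all peaks at 0.46. These counts, and the 20 of 34 for transcription factors, thus rose along with the background. Within them Bmpr1b was at 1.80 ± 0.50 (limma adjusted p 0.0111), Wnt10a at 1.19 ± 0.42 (adjusted p 0.0355) and Hey2 at 0.46 ± 0.15 (adjusted p 0.0266). The calls of these 3 and of Rgs13 were lost in 2 to 4 alternatives each, without either mTEC-I library among them, and that of Col4a2 without mTEC-I replicate 1.

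Lists for other cell types were counted beside these. Of 17 tuft cell promoters 2 were higher in mTEC-I and 9 lower, Rgs13 among the lower (-1.93 ± 0.64, limma adjusted p 0.0256). Signal was also summed over all peaks, promoter or distal, within 10000 bp of the start sites of 23 tuft genes. The sums were 355.3 and 333.4 in mTEC-I, with mTEC-II at 355.8 and 324.3, mTEC-III at 364.9 and 394, and mTEC-IV at 1016 and 1005. Without either mTEC-I library the tuft count was 0 higher and 1 lower, with cyclic loess 2 and 4, and without mTEC-IV replicate 1 or 2 it was 2 and 3, of 8 or 9 tested. Endothelial promoters had 0 higher and 2 lower of 4, and blood cell promoters 1 and 2 of 4. Mesenchymal promoters had 3 higher and 0 lower of 5, namely Pdgfra, Tagln and Fbn1, and without either mTEC-I library 0 of 3. Fbn1 is also among the 17 matrix promoters called higher. The summed signal of the 9 mesenchymal genes with a peak was 209.8 and 199.9 in mTEC-I, with mTEC-II at 108 and 145.1, mTEC-III at 131.6 and 110.5, and mTEC-IV at 107.1 and 107.1. Mesenchymal signal was thus higher in mTEC-I along with the matrix group. On that list Col1a2, Dcn and Lum had no promoter or distal peak assigned to them in any population. The part of other cells in the matrix counts was not tested.

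The same genes had 2980 other distal peaks, 2247 of them tested. In mTEC-I 751 were higher (33.4%), against 21.1% of all distal peaks, and 339 lower (15.1%), against 22.7%, by limma. The rule had taken out of this set the peaks that met both of its thresholds. Near the 640 peaks the share was larger: 40.1% of 549 within 10 kb, 29.5% of 1546 at 10 to 50 kb and 20.1% of 3609 at 50 to 200 kb were higher, whatever their nearest gene. These shares and trends are descriptions, since neighbouring peaks share libraries and region. Some of the peaks also passed the filter on low values only through mTEC-I, which favours the higher side. Without mTEC-I replicate 1 and 2, the number tested for the same genes fell from 2247 to 1787 and 1798. For all distal peaks it fell from 30879 to 26707 and 26793. Without mTEC-I replicate 1, 77 of 1787 were higher and 113 lower, against 2.32% and 9.88% of all distal peaks, and without mTEC-I replicate 2, 78 of 1798 were higher and 104 lower, against 2.25% and 9.12%. With total-tag scaling 1145 were higher and 223 lower. Without mTEC-IV replicate 1 or 2, 178 or 182 were lower.

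The rule caps mTEC-II, mTEC-III and mTEC-IV but sets no order among them. Since it read these values, and since most of the peaks passed the filter on low values through mTEC-I, the counts that follow are a description and support nothing. The mTEC-IV mean was the lowest of the 3 at 476 of the 640 peaks (74.4%), against 47.1% of all distal peaks and 64.2% of those that met the minimum in mTEC-I. The mTEC-II mean was the highest at 308, the mTEC-III mean at 292 and the mTEC-IV mean at 40. By limma, 68 peaks were called higher in mTEC-II than in mTEC-IV (10.6%) and 3 lower, against 16.3% and 15.5% of all distal peaks. For mTEC-III minus mTEC-IV, 61 were higher (9.53%) and 2 lower, against 15% and 11%. In this fit these shares lie below the background, so the number called is no result about the peaks, and the split by direction is a description. The median log2 differences were 0.84 and 0.74, with populations at 0 read ends set to 3 read ends over both libraries, against 0.10 and 0.11 for all distal peaks. The side of the background on which the higher share lay changed with the method. For mTEC-II minus mTEC-IV it was 28% against 19.2% with cyclic loess and 19.4% against 17.7% with edgeR. For mTEC-III minus mTEC-IV it was 19.5% against 15.9% with cyclic loess and 13.1% against 14.9% with edgeR.

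No peak was called between mTEC-II and mTEC-III by limma, by edgeR or by DESeq2. Of all peaks, limma called 0% either way, and edgeR 0.0584% higher and 0.39% lower in mTEC-II. At an unadjusted limma p under 0.05, 62 of the 640 differed (9.69%, against 13.9% of all peaks tested), 36 of them higher in mTEC-II. All 640 passed the filter on low values, but 109 did so without 1 of the mTEC-I libraries, so most passed through mTEC-I. The II minus IV count was 8 and 10 of 109 without mTEC-I replicate 1 and 2, 40 and 27 without mTEC-II replicate 1 and 2, 118 and 115 without mTEC-III replicate 1 and 2, and 15 and 31 without mTEC-IV replicate 1 and 2. The III minus IV count was 7 and 6 of 109 without mTEC-I replicate 1 and 2, and 6 and 27 without mTEC-IV replicate 1 and 2. With total-tag scaling, which moved the median of all peaks to -0.63 in III minus IV, 28 were higher and 4 lower.

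Single peaks with a large difference are given by their values alone, with no test, since they were picked for it from values the rule had capped. The Actn4 intron peak, chr7:29704850-29705085, had 49.1 and 48.0 in mTEC-I, with mTEC-II at 7.77 and 12.1, mTEC-III at 8.08 and 13.9, and mTEC-IV at 1.38 and 0. Actn4 encodes an actinin that cross-links actin. A peak in an intron of Pald1, with Prf1 as the nearest gene, had 5.44 and 6.86 in mTEC-II, against 0 and 0.338 in mTEC-IV. One in an intron of Adgrf5, an adhesion receptor, had 4.66 and 4.75 in mTEC-II and no read end in mTEC-IV. A peak near Zfp36l1, an RNA-binding protein that speeds mRNA decay, had 5.77 and 7.64 in mTEC-III, against 0.917 and 0 in mTEC-IV. Others of this kind lay near Gorab, A4galt and Wscd1, in an intron of Tpcn2 and at chr10:66406742-66406882. In each the mTEC-IV libraries held next to no reads and mTEC-II or mTEC-III held a low signal well under that of mTEC-I.

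**Figure D5:**
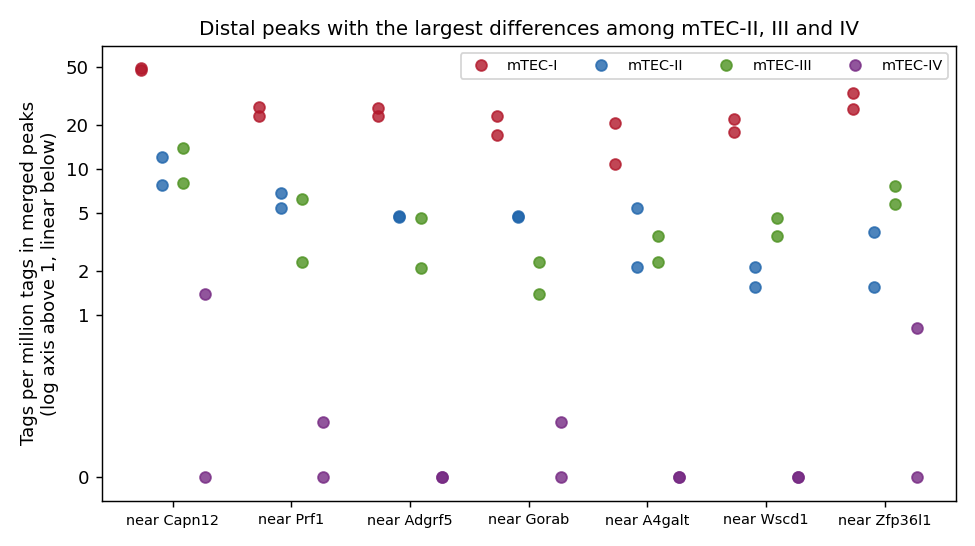
Signal by library at the distal peaks picked for the largest differences among mTEC-II, mTEC-III and mTEC-IV, in tags per 1000000 tags in merged peaks, on an axis that is logarithmic above 1 and linear below, each named by its nearest gene. The mTEC-I points are the highest at each peak, at 10.8 to 49.1, and the mTEC-IV points are at 1.38 or less.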

How the data were processed

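ATAC-seq signal was analysed in 8 libraries, 2 for each of 4 sorted mTEC populations. Reads were demultiplexed with bcl2fastq 2.15.0.4 and handled with Picard 1.108 and HOMER on mm9, per the submitters' processing notes, which give no further role or order. The deposited merged table, made by the authors with HOMER, holds a signal for each of 74090 peaks and library: tags per 10000000 total tags, per the file headers. It also names the libraries whose called peaks were merged into each region. The peak list deposited for each library, with a score a peak from the authors' peak caller, gave no result here. The deposited signal values are whole multiples of 0.5 tag in 100% of values within 0.005, so read ends were recovered.

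Signal was rescaled to 1000000 tags in merged peaks for the rule and the values printed. Tests were limma 3.58.1 (R 4.3.3) with a trend on log2(value + 1) after TMM scaling, with 10 tags per 10000000 in 2 libraries as the filter (59421 peaks kept), 1 coefficient a population over all 8 libraries and an adjusted p under 0.05. A log2 difference on this scale understates the change of low peaks. Steps were tested on simulated data. As alternatives, edgeR 4.0.16 and DESeq2 1.42.0 were run on the recovered read ends, together with other scalings, pseudocounts, filters and left-out libraries. In mTEC-I minus the mean of the others, edgeR called 15552 of all peaks higher and 12122 lower, limma 10902 and 11367. Intervals and floors cover counting error only. A promoter peak was the strongest within 1000 bp of a gene's start, and a gene's motif match was sought in RefSeq windows. Motif shares over the called genes are not given, because 66 of 84 of them matched that table, under the share needed, and such a check is void.

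The rule, the members and the gene lists were chosen with earlier results of these data known. Named were genes nearest to 4 or more peaks and the 8 peaks highest in mTEC-I. Also named were the 8 with the highest ratio after adding 1 to both means. Among called promoter peaks whose mTEC-I values both lay beyond all other libraries, the 10 largest rises and 6 largest falls were named. List genes, the 5 largest called differences in each pair, and the peaks at the thresholds were named too. Host genes in place of nearest genes for intronic peaks were an alternative chosen after seeing the data. One gene of the basal keratin and adhesion list is counted but not reported here.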

Additional observations from a re-analysis of the deposited data

How the results depend on the processing

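The number of peaks was 1738 with total-tag scaling of the rule, 1224 and 322 with a minimum of 10 and 20, 1001 and 417 with a ratio of 3 and 5, 231 with both thresholds in each library, and 593 to 711 without 1 library. Promoter peaks higher in mTEC-I numbered 187 with total-tag scaling, 11 where one of the peaks lay within 10000 bp and 14 to 104 without 1 library; lower ones 7, 3 and 3 to 20. Other distal peaks of the same genes higher in mTEC-I numbered 1145 with total-tag scaling and 77 to 786 without 1 library, and lower ones 223 and 104 to 362. Between mTEC-II and mTEC-III, 18 were higher and 1 lower with total-tag scaling, and 0 to 9 and 0 to 1 without 1 library. For II minus IV, 179 were higher with cyclic loess, 124 with edgeR, 35 with a pseudocount of 5 and 8 to 118 without 1 library; 0 were lower with DESeq2, 1 with a pseudocount of 5 and 0 to 6 without 1 library. For III minus IV, 31 were higher with DESeq2, 125 with cyclic loess, 37 with a pseudocount of 5, 28 with total-tag scaling and 6 to 74 without 1 library. Lower there were 0 with DESeq2, cyclic loess or a pseudocount of 5, 1 with edgeR, no filter or the replicate block, 4 with total-tag scaling and 0 to 11 without 1 library. Fewer libraries leave less spread information; otherwise the cause was not tested. Where a population has 1 library left, it is assumed to vary like the others.

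Replicate numbers did not pair the libraries: deviations from population means correlated at -0.013 to 0.031. With the replicate block, promoter peaks were 85 higher and 16 lower, other distal peaks 756 and 337, II minus IV 65 and 3, III minus IV 62 and 1, and II minus III 0 and 0. With host genes for intronic peaks, 87 of 372 promoter peaks were higher and 14 lower. Depth limits the low side of each contrast, where the median was 6 read ends or fewer in each library.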
